A study of Homo sapiens with 12 samples.

Results

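The cancer-testis antigen families were examined in fast and in parental cells of MDA-MB-231, a human breast cancer line of the triple-negative class. Members were the rows of the deposited count table whose gene symbol began with MAGEA, MAGEB, MAGEC, SPANX, GAGE, XAGE, PAGE, CSAG, CTAG or SSX followed by a number or letter. This gave 115 of 60234 genes, of which 63 had any count, 52 were at 0 in every library and 41 had 10 or more counts in total. The prefixes also took in 17 genes of other kinds, 16 CTAGE genes and SSX2IP, so that 98 genes belonged to the families proper. Of these 98, 46 had any count and 31 had 10 or more.

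The fast population had been captured by the trajectory of its cells, and the parental population carried no such selection. Each gave 6 libraries of total RNA, 3 in each of 2 batches, which the submitters describe as technical replicates. All came from the same line, so the p-values below measure no more than differences among these libraries, and those may be technical. In bulk RNA, fewer cells that express a gene and less RNA per cell cannot be told apart.

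Cancer-testis genes are active in the germ cells of the testis, silent in most adult tissues and switched on again in many tumours. Most of these families lie on the X chromosome in clusters of recent copies, and in somatic cells DNA methylation of their promoters is a known means of keeping them silent. MAGE proteins share a domain that binds RING ubiquitin ligases, SPANX proteins belong to the nuclear envelope of sperm, and SSX proteins repress transcription and are fused to SS18 in synovial sarcoma.

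The promoters of 6 members are shown because they belong to genes of opposite direction or to neighbours on the X chromosome. Each runs from 250 bases before to 50 bases after the RefSeq start (GRCh38.p14), and capitals mark GGATGTG, or CACATCC where it lies on the other strand, a motif chosen after these promoters were read.
MAGEA6 promoter, chrX:152769640-152769939, - strand: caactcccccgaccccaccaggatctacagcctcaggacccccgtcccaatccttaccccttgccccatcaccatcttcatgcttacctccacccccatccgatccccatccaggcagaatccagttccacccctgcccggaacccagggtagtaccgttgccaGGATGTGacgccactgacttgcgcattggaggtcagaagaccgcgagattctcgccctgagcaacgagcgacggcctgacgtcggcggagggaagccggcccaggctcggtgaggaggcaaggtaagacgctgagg
MAGEA11 promoter, chrX:149711810-149712109, + strand: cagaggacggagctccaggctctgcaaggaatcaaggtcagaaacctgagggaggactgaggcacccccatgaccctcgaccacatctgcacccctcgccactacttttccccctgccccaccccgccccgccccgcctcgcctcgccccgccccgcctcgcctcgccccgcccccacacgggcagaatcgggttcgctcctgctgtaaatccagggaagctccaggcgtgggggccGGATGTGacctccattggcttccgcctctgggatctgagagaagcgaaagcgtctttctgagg
MAGEC1 promoter, chrX:141903644-141903943, + strand: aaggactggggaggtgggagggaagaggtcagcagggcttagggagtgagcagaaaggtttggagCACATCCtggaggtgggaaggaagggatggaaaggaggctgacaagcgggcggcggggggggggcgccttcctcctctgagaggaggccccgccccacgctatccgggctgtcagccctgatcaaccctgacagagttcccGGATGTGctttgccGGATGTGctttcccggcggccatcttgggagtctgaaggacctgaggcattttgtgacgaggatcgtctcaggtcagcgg
MAGEC2 promoter, chrX:142205241-142205540, - strand: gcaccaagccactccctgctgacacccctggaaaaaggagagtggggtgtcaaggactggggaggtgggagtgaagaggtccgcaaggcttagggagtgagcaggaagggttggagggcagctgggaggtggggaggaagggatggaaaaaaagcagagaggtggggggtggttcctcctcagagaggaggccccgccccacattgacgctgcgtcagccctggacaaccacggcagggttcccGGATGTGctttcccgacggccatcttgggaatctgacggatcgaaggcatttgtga
MAGEC3 promoter, chrX:141894416-141894715, + strand: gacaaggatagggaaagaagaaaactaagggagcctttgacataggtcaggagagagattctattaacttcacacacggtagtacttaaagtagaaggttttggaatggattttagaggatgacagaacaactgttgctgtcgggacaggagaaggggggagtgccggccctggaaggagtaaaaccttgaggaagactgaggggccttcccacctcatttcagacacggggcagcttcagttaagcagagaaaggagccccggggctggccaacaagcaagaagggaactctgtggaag
SPANXA2 promoter, chrX:141589458-141589757, + strand: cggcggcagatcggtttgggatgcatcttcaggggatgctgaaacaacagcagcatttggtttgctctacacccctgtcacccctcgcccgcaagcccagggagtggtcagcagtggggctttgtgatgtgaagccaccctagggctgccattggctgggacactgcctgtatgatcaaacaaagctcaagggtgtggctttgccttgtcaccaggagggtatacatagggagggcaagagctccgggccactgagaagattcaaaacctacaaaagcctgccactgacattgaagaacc
The MAGEA3 promoter held the same 300 bases as that of MAGEA6, and the SPANXA1 promoter the same as that of SPANXA2. Promoters were found for 24 of the 41 members with 10 or more counts. GGATGTG, which holds the core of an ETS site and was searched on both strands, stood in 10 of these 24 and in 4.29% of 35116 promoters. It stood in 8 of 9 MAGEA and MAGEC promoters, with 3 matches in MAGEC1 and none in MAGEC3. None of the 5 SPANX promoters held it, and those of SPANXA1 and SPANXA2 are 1 reading. The promoters of SSX1, CTAGE1 and SSX2IP, which fell in fast cells, also lacked it. The 10 members are not separate readings: MAGEA3 and MAGEA6 have the same promoter, MAGEA2 and MAGEA2B are copies, and CSAG1 and MAGEA12 share 1 match in overlapping windows. As the motif was chosen on these promoters, the share is a description. CCGGAA, another ETS core, stood in 3 of 24 members and in 17.2% of all promoters. A CG dinucleotide, the site of DNA methylation, occurred 19 times in the MAGEA6 promoter, 21 times in that of MAGEA11 and 14 times in that of MAGEC1. It occurred 10 times in the MAGEC2 promoter, 5 times in that of MAGEC3 and 6 times in that of SPANXA2, beside a median of 14 over all promoters, with quartiles of 4 and 28.

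Copies of these genes share much of their transcript. The coding sequences of MAGEA3 and MAGEA6 were 98.1% identical, with 18 mismatches in 942 bases. Shown are bases 573 to 632 from the start codon in GENCODE transcripts, with 4 of the mismatches in capitals. They were picked as the stretch of this length with the most mismatches, so a typical stretch separates the copies less well.
MAGEA3: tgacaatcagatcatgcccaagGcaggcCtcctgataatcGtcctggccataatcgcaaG
MAGEA6: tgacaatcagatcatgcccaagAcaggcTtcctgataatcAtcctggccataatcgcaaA
Of the windows of 50 bases in a gene's transcripts, 56.6% for MAGEA6 and 56.2% for MAGEA3 also occurred in another gene. SPANXA1 and SPANXA2 shared 100% of theirs, and SPANXC shared 84.9% and SPANXD 71.6%. MAGEA11 shared 0.211%, MAGEC1 0.379%, MAGEC2 0.0515% and MAGEC3 0%, which leaves little sequence that a near-identical copy could share. The counting of reads that match several genes is unknown here, so values of single MAGEA3, MAGEA6, MAGEA2B, SPANX and XAGE1 copies are uncertain and each family is also given as a sum.

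Across the families, the MAGEA genes, MAGEC1, MAGEC2, CSAG1 and SSX1 were near or at 0 in fast cells, and 6 of 12 SPANX genes were higher there. The low-count filter left 23 members and removed 18 of the 41 with 10 or more counts. In edgeR's quasi-likelihood fit over 22668 genes (Benjamini-Hochberg adjusted p under 0.05), 6 of the 23 rose and 14 fell in fast cells, and 3 were not called. Over all genes tested, 31.9% rose and 31.5% fell. In 11 of the 23 every fast library lay below every parental one, and in 5 above, beside 19.6% and 18.8% of all genes tested. At a change of at least 2-fold, 6 members rose and 10 fell, beside 3.98% and 6.92% of all genes tested. Among the 19 tested members of the families proper, 6 rose and 11 fell. Several members passed the filter only through the population in which they were high, so these counts describe the members that could be tested. The median log2 fold change, fast over parental, was -0.59 over the 23 members and 0.01 over all genes. That of the members was the value of CTAGE5, caught by its prefix alone, so it describes few of them. The change of a member differed between the batches in 0 of 23 by edgeR and by limma-voom, beside 5.38% of all genes by edgeR. MAGEA6, MAGEA3, MAGEA11, MAGEA2B and MAGEC2 had 0 counts in fast cells, so their change within a batch could not be estimated. For SSX1 and MAGEC1 it rested on 4 and 2 fast counts. The 0 of 23 therefore does not show that the batches gave the same changes. At an unadjusted p under 0.05 each tool gave 1 member, CTAGE1.

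**Figure D1:**
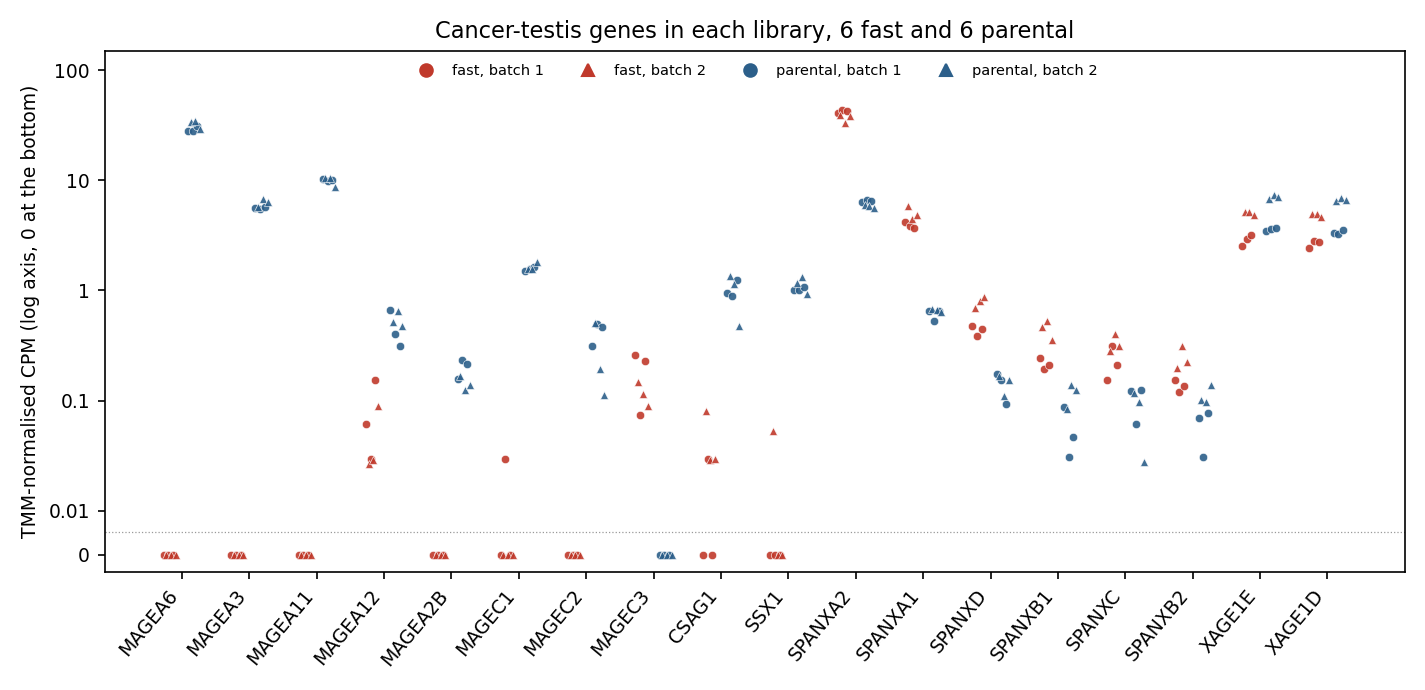
TMM-normalised CPM (log axis, 0 at the bottom) of 18 family members in each of the 6 fast and 6 parental libraries, circles for batch 1 and triangles for batch 2. MAGEA6, MAGEA3 and MAGEA11 were at 0 in the 6 fast libraries, SPANXA2 and SPANXA1 were higher in fast libraries than in any parental library, and XAGE1D and XAGE1E were split by batch.

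Among the MAGEA genes, which encode tumour antigens recognised by T cells, MAGEA6 had the highest level. It had 0 CPM (counts scaled by TMM to a common library total) in the 6 fast libraries, against a lowest of 27.7, a median of 29.9 and a highest of 34.3 CPM in parental libraries. The populations did not overlap, with 0 counts in fast and 11952 in parental cells. Against a floor of 3 counts over the fast libraries, MAGEA6 was at least 4060-fold lower in fast cells (edgeR adjusted p = 3.18e-31). If the counts come as read pairs, this bound and those of the other genes at 0 would be lower.

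MAGEA3, whose protein with that of MAGEA6 directs the ligase TRIM28 to AMP-activated kinase, was likewise at 0 in the 6 fast libraries, against 5.45, 5.74 and 6.77 CPM as the lowest, median and highest of parental libraries. No fast library had a count, against 2325 in parental cells. It was at least 789.7-fold lower in fast cells (edgeR adjusted p = 2.14e-24). The ratio of MAGEA6 to MAGEA3 in parental libraries was 4.55 to 5.96, with a median of 5.10.

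MAGEA11, a coregulator of the androgen receptor, was at 0 CPM in every fast library, against 8.62, 10.3 and 10.6 CPM as the lowest, median and highest in parental libraries. Fast cells had 0 counts and parental cells 3886, and the populations did not overlap. It was at least 1320-fold lower in fast cells (edgeR adjusted p = 1.29e-26). Its coding sequence was 59.1% identical to that of MAGEA6.

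MAGEA12 alone among the MAGEA genes had counts in fast cells. Its lowest, median and highest levels were 0.0266, 0.0455 and 0.154 CPM in fast libraries and 0.310, 0.499 and 0.666 CPM in parental libraries. All fast libraries lay below all parental ones, with 24 counts in fast and 196 in parental cells. Its log2 fold change was -2.99 ± 0.40 (SE, edgeR adjusted p = 5.17e-08), with -2.53 in batch 1 and -3.49 in batch 2. Its transcripts shared 8.76% of windows of 50 bases with other genes.

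MAGEA2B had 0 counts in fast and 67 in parental cells, at least 22.8-fold lower in fast cells (edgeR adjusted p = 3.63e-07), and every window of 50 bases of its transcripts also occurred in MAGEA2. MAGEA2, MAGEA5 and MAGEA1 were too low to test, with 0 counts each in fast cells against 25, 29 and 25 in parental cells. Without a filter each was called lower (edgeR adjusted p = 6.58e-04, 2.27e-04 and 0.00205). MAGEA10 and MAGEA9 had 0 in fast cells against 8 and 6 counts. The other 6 MAGEA rows were at 0 in all 12 libraries. Summed over its 16 rows, the family stood at 0.0266, 0.0455 and 0.154 CPM (lowest, median, highest) in fast libraries and at 44.2, 46.1 and 52.7 CPM in parental libraries. The sums did not overlap (log2 fold change of the family fitted as 1 row -9.58 ± 0.12 SE, edgeR adjusted p = 1.79e-33), and the fast sum was that of MAGEA12 in every library.

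The MAGEC genes went different ways. MAGEC1, a cancer-testis antigen known from multiple myeloma, had 0, 0 and 0.0298 CPM (lowest, median, highest) in fast libraries, against 1.51, 1.56 and 1.81 CPM in parental libraries. Counts were 2 in fast cells, all from fast batch 1 replicate 2, and 627 in parental cells. The parental level was 319.5 times the fast level (exact Poisson interval at 95% from 88.1 to 2644, and from 57.0 to 12680 if the counts come as read pairs), and the fall was called (edgeR adjusted p = 4.42e-19).

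MAGEC2, whose protein also binds TRIM28, had 0 CPM in the 6 fast libraries, against 0.112, 0.391 and 0.506 CPM as the lowest, median and highest of parental libraries. With 0 counts in fast and 132 in parental cells it was at least 44.8-fold lower in fast cells (edgeR adjusted p = 6.48e-09). MAGEC3 was the reverse, with 0.0745, 0.131 and 0.260 CPM in fast libraries and 0 CPM in every parental library. It had counts in each fast library, 59 in all, against 0 in parental cells, at least 19.3-fold higher in fast cells. The low-count filter removed MAGEC3. Without a filter it was called higher (edgeR adjusted p = 2.97e-08).

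CSAG1, a chondrosarcoma-associated gene that lies among the MAGEA genes, had 0, 0.0292 and 0.0798 CPM (lowest, median, highest) in fast libraries and 0.476, 1.04 and 1.35 CPM in parental libraries. Every fast library lay below every parental one. Its parental level was 32.9 times the fast level (12 counts in fast and 387 in parental cells, exact interval from 18.6 to 64.2). The interval would run from 14.9 to 90.9 if the counts come as read pairs. The log2 fold change of CSAG1 was -4.98 ± 0.40 (SE, edgeR adjusted p = 6.57e-13). Without fast batch 2 replicate 1, which held the most fast counts, it was -5.61. CSAG2 had 6 counts in fast and 17 in parental cells, CSAG4 had 2 in fast and 23 in parental cells, and CSAG3 had none. Without a filter CSAG4 was called lower (edgeR adjusted p = 0.0169).

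SSX1 had 0, 0 and 0.0532 CPM (lowest, median, highest) in fast libraries and 0.938, 1.04 and 1.31 CPM in parental libraries. The groups did not overlap, and the 4 fast counts came from fast batch 2 replicate 1, with 0 in the other 5 fast libraries, against 424 counts in parental cells. The parental level was 108.0 times the fast level (exact interval from 41.9 to 398.3, and from 29.5 to 897.7 if the counts come as read pairs). SSX1 was called lower in fast cells (edgeR adjusted p = 1.95e-15). Of the other SSX rows, SSXP10 had 3 counts in fast and 7 in parental cells, the fewest of the 41 members with 10 or more counts, and 10 of the 17 SSX rows were at 0. The next member below, SSX8, had 9 counts in all and was called lower without a filter (edgeR adjusted p = 0.0415).

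**Figure D2:**
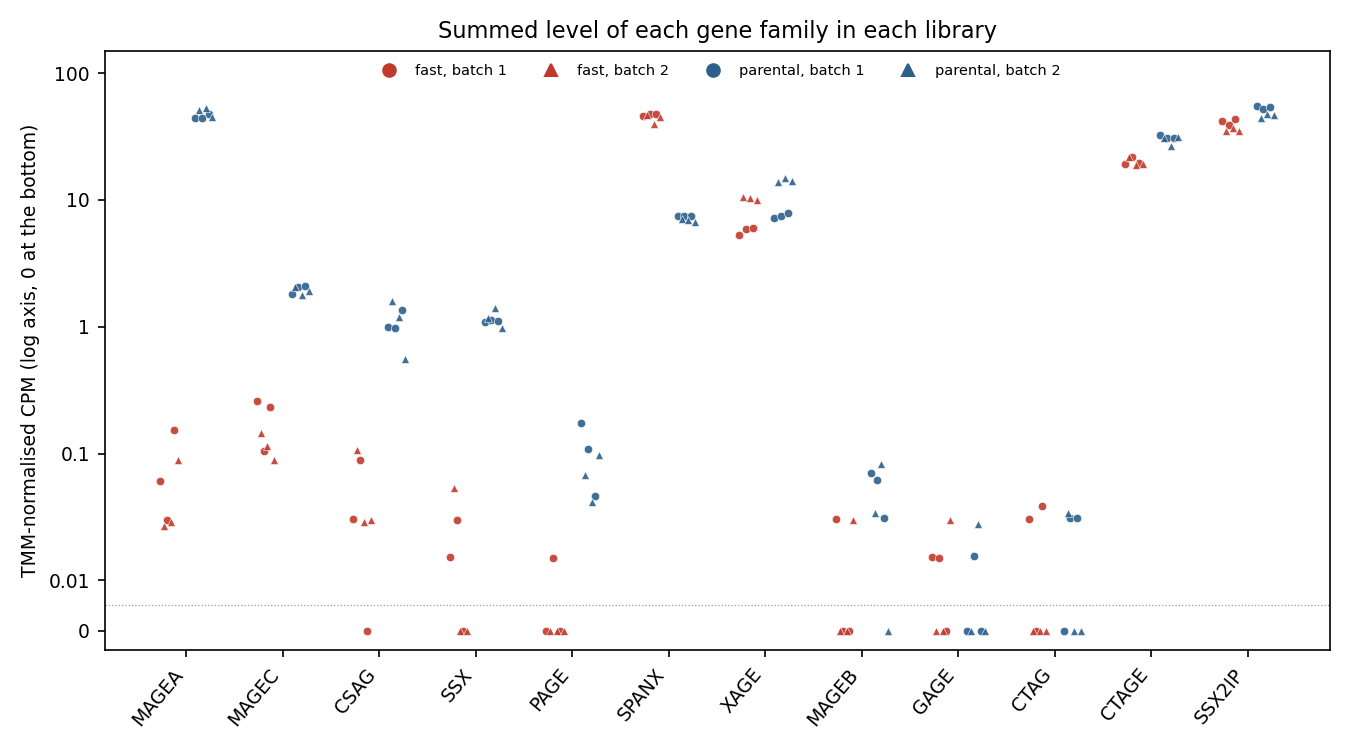
Sum of TMM-normalised CPM (log axis, 0 at the bottom) over the rows of each symbol prefix in each library, fast in red and parental in blue, circles for batch 1 and triangles for batch 2. MAGEA sums reached at most 0.154 CPM in fast and at least 44.2 CPM in parental libraries, SPANX sums were at least 40.0 CPM in fast and at most 7.49 CPM in parental libraries, and XAGE, MAGEB, GAGE and CTAG sums overlapped.

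Of the 12 SPANX rows, 6 were tested and all 6 rose, SPANXN2 to SPANXN5 were at 0, and SPANXN1 had 0 counts in fast and 2 in parental cells. SPANXA2 had 33.5, 40.0 and 43.1 CPM (lowest, median, highest) in fast libraries and 5.56, 6.17 and 6.60 CPM in parental libraries. The fast libraries were all above the parental ones, with 15629 counts in fast and 2373 in parental cells. Its log2 fold change was 2.69 ± 0.05 (SE, edgeR adjusted p = 4.15e-31), with 2.70 in batch 1 and 2.69 in batch 2.

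SPANXA1, identical to SPANXA2 in coding sequence, had 3.66, 4.30 and 5.84 CPM (lowest, median, highest) in fast libraries and 0.527, 0.650 and 0.674 CPM in parental libraries. Again no library of one population reached the range of the other. SPANXA1 rose by 2.81 ± 0.12 on the log2 scale (SE, edgeR adjusted p = 1.64e-20), with 2.68 in batch 1 and 2.93 in batch 2. The ratio of SPANXA2 to SPANXA1 was 6.75 to 11.6 in fast and 8.63 to 12.5 in parental libraries, with overlapping ranges.

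The other SPANX members were rarer. SPANXD had 247 counts in fast and 55 in parental cells (log2 fold change 2.07 ± 0.29 SE, edgeR adjusted p = 1.06e-07), and SPANXB1 had 136 in fast and 34 in parental cells (1.94 ± 0.37 SE, 2.26e-05). SPANXC had 112 counts in fast and 35 in parental cells, a rise of 1.59 ± 0.40 on the log2 scale (SE, edgeR adjusted p = 8.42e-04), which was not called in batch 1 alone (adjusted p = 0.0961, with a range over 21 alternatives from 3.24e-04 to 0.0961). SPANXB2 had 77 counts in fast and 34 in parental cells, its libraries overlapped, and it rose by 1.13 ± 0.42 on the log2 scale (SE, edgeR adjusted p = 0.0174). Without fast batch 2 replicate 2 the log2 fold change was 1.03 and the call was lost (adjusted p = 0.0577, with a range over the alternatives from 0.0116 to 0.143). SPANXA2-OT1, a transcript that overlaps SPANXA2, had 25 counts in fast and 0 in parental cells and was called higher without a filter (edgeR adjusted p = 8.09e-04). Its reads cannot be told apart here from those of its partner. Over its 12 rows the SPANX sum was 40.0, 46.4 and 47.9 CPM (lowest, median, highest) in fast libraries and 6.68, 7.25 and 7.49 CPM in parental libraries. Fitted as 1 row, the family rose by 2.67 ± 0.05 on the log2 scale (SE, edgeR adjusted p = 5.13e-31).

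XAGE1 genes, a cancer-testis group known from Ewing sarcoma and lung cancer, differed less between the populations and also differed between the batches. XAGE1D had 2.42, 3.73 and 4.94 CPM (lowest, median, highest) in fast libraries and 3.29, 5.01 and 6.95 CPM in parental libraries. These ranges overlapped, but not within a batch, where the medians were 2.78 CPM in fast and 3.30 in parental cells in batch 1 and 4.91 in fast and 6.66 in parental cells in batch 2. XAGE1D fell by 0.41 on the log2 scale (SE 0.08, edgeR adjusted p = 2.98e-05), and without a batch term its log2 fold change was -0.42 and the call was lost (adjusted p = 0.20, the highest over 22 alternatives, which began at 2.62e-07).

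XAGE1E had 2.51, 4.01 and 5.18 CPM in fast libraries and 3.47, 5.23 and 7.32 CPM in parental libraries, with the same split by batch. It fell by 0.41 on the log2 scale (SE 0.08, edgeR adjusted p = 3.32e-05), and without a batch term its log2 fold change was -0.42 and the call was also lost (adjusted p = 0.19, with a range over the alternatives from 3.01e-07 to 0.19). XAGE1E stood at 1.04 to 1.14 times the level of XAGE1D in every library, so these rows are not independent readings. XAGE1B (68 counts in fast and 102 in parental cells) and XAGE1C (38 in fast and 50 in parental cells) were not called (edgeR adjusted p = 0.179 and 0.445). XAGE1A had 23 counts in fast and 29 in parental cells and was not tested. Over 9 rows the XAGE sum was 5.34, 8.06 and 10.6 CPM (lowest, median, highest) in fast libraries and 7.19, 10.9 and 14.9 CPM in parental libraries, and as 1 row its log2 fold change was -0.43 ± 0.06 (SE, edgeR adjusted p = 1.01e-07).

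Rows of the remaining families held few or no counts. PAGE2B had 1 count in fast and 26 in parental cells, MAGEB6 had 0 in fast and 14 in parental cells, and XAGE2B had 8 in fast and 30 in parental cells. Without a filter PAGE2B and MAGEB6 were called lower (edgeR adjusted p = 0.00352 and 0.0148). The 17 GAGE rows had 4 counts in fast and 3 in parental cells, all from GAGE10, and the 3 CTAG rows, which include the NY-ESO-1 antigen genes, had 4 in fast and 6 in parental cells. At this depth, with 53267145 to 75944907 counts per library, no difference was detectable for GAGE or CTAG.

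The genes caught by their prefix alone behaved as follows. CTAGE5, whose product works in protein export from the endoplasmic reticulum, had 18.4, 18.9 and 21.2 CPM (lowest, median, highest) in fast libraries and 26.2, 29.8 and 31.2 CPM in parental libraries. It fell by 0.59 without overlap (log2, SE 0.05, edgeR adjusted p = 2.81e-13). SSX2IP, a centrosomal partner of SSX2, had 34.9, 38.0 and 43.7 CPM in fast libraries and 44.4, 49.96 and 54.7 CPM in parental libraries. It fell by 0.37 without overlap (log2, SE 0.03, edgeR adjusted p = 1.68e-11). CTAGE1 had 18 counts in fast and 100 in parental cells and fell by 2.51 on the log2 scale (SE 0.58, edgeR adjusted p = 3.27e-04). Without fast batch 2 replicate 2 its log2 fold change was -3.32. In batch 1 it was -4.66 and in batch 2 -1.41, where the call was lost (adjusted p = 0.0769, with a range over the alternatives from 4.83e-06 to 0.0769). CTAGE7P, with 120 counts in fast and 104 in parental cells, was not called (edgeR adjusted p = 0.682). The other 6 named CTAGE genes, CTAGE9, CTAGE4, CTAGE12P, CTAGE10P, CTAGE3P and CTAGE11P, had 0 to 21 counts in fast and 8 to 30 in parental cells and were not tested. Of these, CTAGE9 and CTAGE4 were called lower without a filter (edgeR adjusted p = 0.0217 and 0.0425), and the others were not called.

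Set on a common scale of CPM per kilobase of the longest annotated transcript, the levels changed order between the populations. In fast cells SPANXA2 was first among those family members with an annotated transcript, at 57.3, followed by SPANXA1 at 6.47 and SPANXD at 0.898. In parental cells MAGEA6 was first at 17.4, followed by SPANXA2 at 8.85, MAGEA3 at 3.37 and MAGEA11 at 2.97. XAGE1D, XAGE1E and SPANXB1 had no transcript in the annotation used and take no place in this order.

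Members were read beside their neighbours on the X chromosome, where 27 of the 41 with 10 or more counts could be placed. XAGE1C, XAGE1D and XAGE1E had no chromosome in the annotations used and are not among the 27. Of the other X-linked genes tested, 50 of 736 rose (6.79%) and 511 fell (69.4%), with a median log2 fold change of -0.58. The 15 tested members placed on X had 5 that rose and 9 that fell, so the share that fell was no higher than among other X-linked genes. With genes at 0 in fast cells set to their bound, the median log2 fold change of these 15 was -4.51, and 8 of them were called at least 16-fold lower, beside 58 of the 736 (7.88%). The 15 leave out the tested members SPANXB1, XAGE1C, XAGE1D and XAGE1E, whose IDs were not in GENCODE. Over the 19 tested members of the families proper the median log2 fold change was -0.60, the value of XAGE1B, which was not called. That median is no typical change of these members. At a change of at least 2-fold, 6 of the 19 rose and 9 fell, beside 3.98% and 6.92% of all genes tested. A gene with 100 or more parental counts and 0 fast counts was found in 0.389% of 19811 genes, in 4.9% of 674 on X and in 4 of 17 members, namely MAGEA6, MAGEA3, MAGEA11 and MAGEC2. The opposite, 10 or more fast counts and 0 parental counts, held for 0.279% of 26900 genes and for 2 of 23 members, MAGEC3 and SPANXA2-OT1. The number of members in these counts is too small to read them as more than a description.

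Along the chromosome, SPANXC, SPANXA1, SPANXA2, SPANXD, MAGEC3, MAGEC1 and MAGEC2 followed one another with no other tested gene between them in the annotation. The run held 4 genes that rose, then MAGEC3 with counts only in fast cells, then 2 that fell. Over the 5 tested non-member genes on either side the median log2 fold change was 0.18, with a range from -1.13 to 2.58. Around MAGEA3, MAGEA2B, CSAG1, MAGEA12 and MAGEA6 it was -0.84, with 8 of 10 neighbours called lower and 0 higher. These included GABRA3 and GABRE, subunits of the GABA receptor. The median was -0.81 around MAGEA11, -0.41 around SSX1, -0.68 around XAGE1A and -0.94 around PAGE2B.

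**Figure D3:**
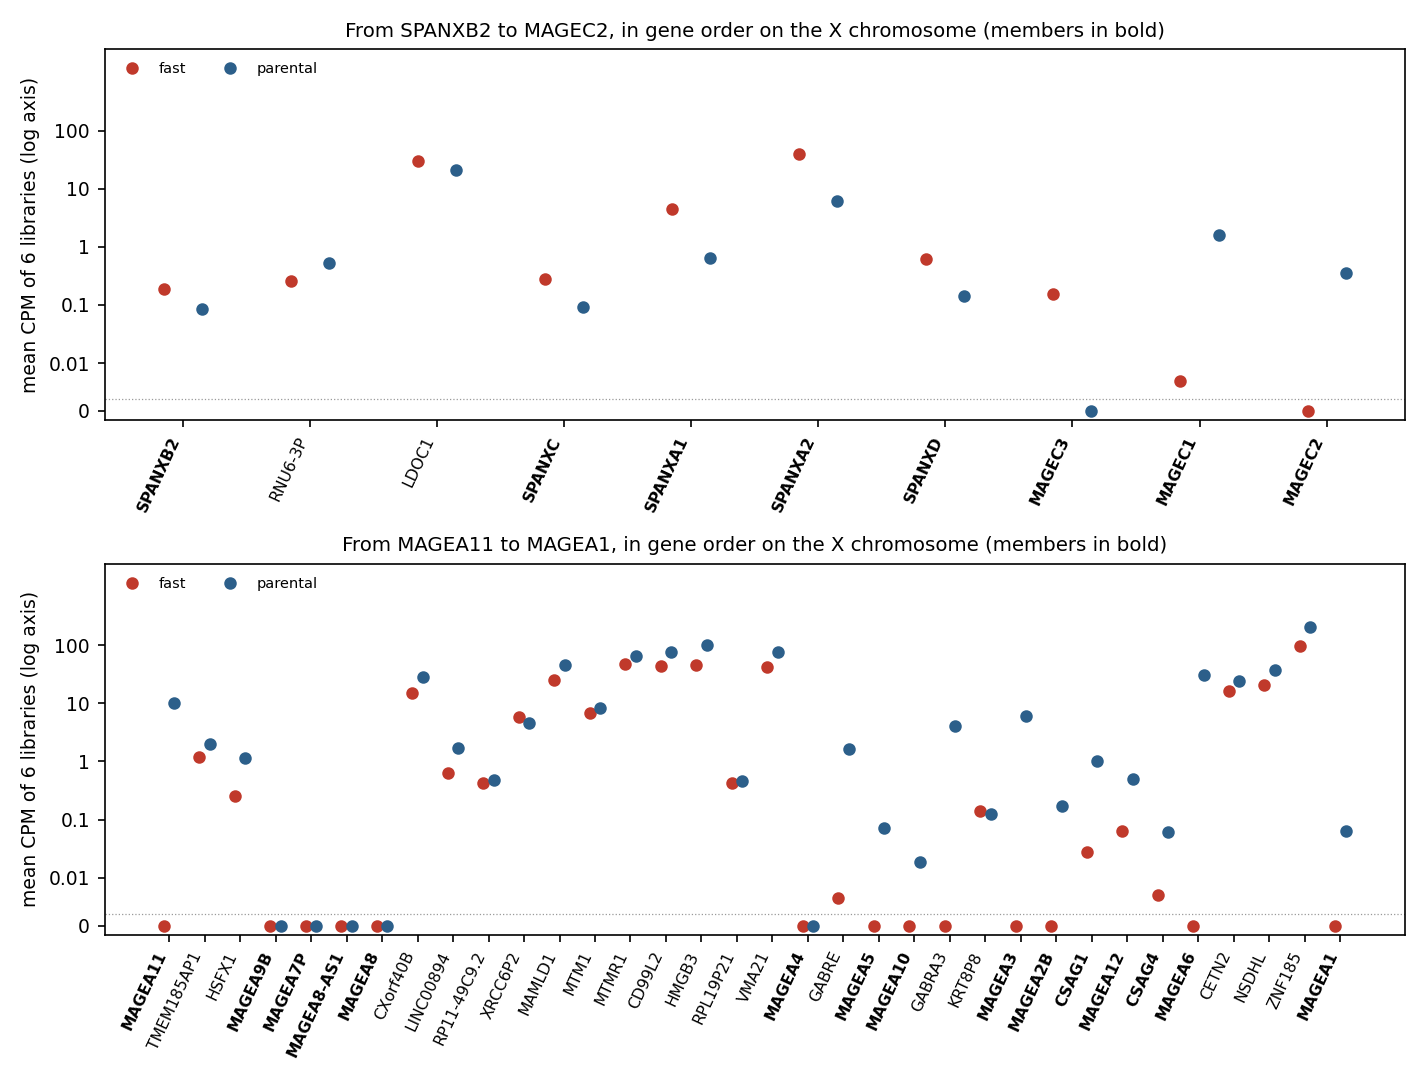
Mean CPM of the 6 fast (red) and 6 parental (blue) libraries for genes in their order on the X chromosome (log axis, 0 at the bottom), in a run from SPANXB2 to MAGEC2 and a run from MAGEA11 to MAGEA1, members in bold. In the upper run the red points lie above the blue ones for SPANXC to MAGEC3 and below them for MAGEC1 and MAGEC2, and in the lower run no MAGEA or CSAG gene has a red point above its blue one.

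Other cancer-testis and MAGE genes give the setting of the families. The type II MAGE genes are relatives expressed in many tissues, and the edgeR fit called 9 of 9 tested ones lower in fast cells. Over all genes 31.5% were called lower, and among other X-linked genes, where most type II MAGE genes lie, 69.4%. Their median log2 fold change was -1.08, beside 0.01 over all genes. The smallest change was that of NDNL2, with a log2 fold change of -0.12 (SE 0.05, edgeR adjusted p = 0.0435). It was not called in batch 1 alone (edgeR adjusted p = 0.234) or batch 2 alone (0.0904). MAGEE2 had 0 counts in fast and 48 in parental cells. MAGEH1 had 0, 0.0728 and 0.106 CPM (lowest, median, highest) in fast libraries and 8.28, 8.79 and 9.37 CPM in parental libraries, a log2 fold change of -7.03 ± 0.17 (SE, edgeR adjusted p = 7.94e-28). Its libraries did not overlap. MAGEE1, which binds the dystrobrevin complex, fell by 4.69 (SE 0.18), MAGED1, a binding partner of the neurotrophin receptor p75, by 1.74 (SE 0.06), and MAGED2, needed for salt transport in the kidney, by 1.08 (SE 0.04), each on the log2 scale and past the edgeR threshold.

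Of 33 other X-linked cancer-testis genes matched in the table, 3 were tested. CT83, a lung cancer antigen, had 0 CPM in the 6 fast libraries, against 7.35, 7.89 and 8.50 CPM as the lowest, median and highest of parental libraries, with 0 counts in fast and 3074 in parental cells. FAM46D had 0 counts in fast and 103 in parental cells. Both were called lower, and PLAC1 was not called. Among 18 tested autosomal cancer-testis and germline genes, 4 rose, 8 fell and 6 were not called, beside 31.9% and 31.5% of all genes tested that rose and fell. MAEL, which protects germ cells from transposons, fell by 1.29 on the log2 scale (SE 0.20), and SPAG9, a scaffold of JNK signalling, rose by 0.47 (SE 0.04), ATAD2, a chromatin ATPase, by 0.44 (SE 0.03) and ODF2, a centriole protein, by 0.41 (SE 0.03), all past the edgeR threshold. The 5 largest called changes of the list lay below 1 CPM and were falls. TDRD9 had 0 counts in fast and 69 in parental cells, CTNNA2 had 6 in fast and 159 in parental cells, ROPN1B had 5 in fast and 63 in parental cells, TPTE had 8 in fast and 66 in parental cells, and TEX19 had 22 in fast and 70 in parental cells.

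**Figure D4:**
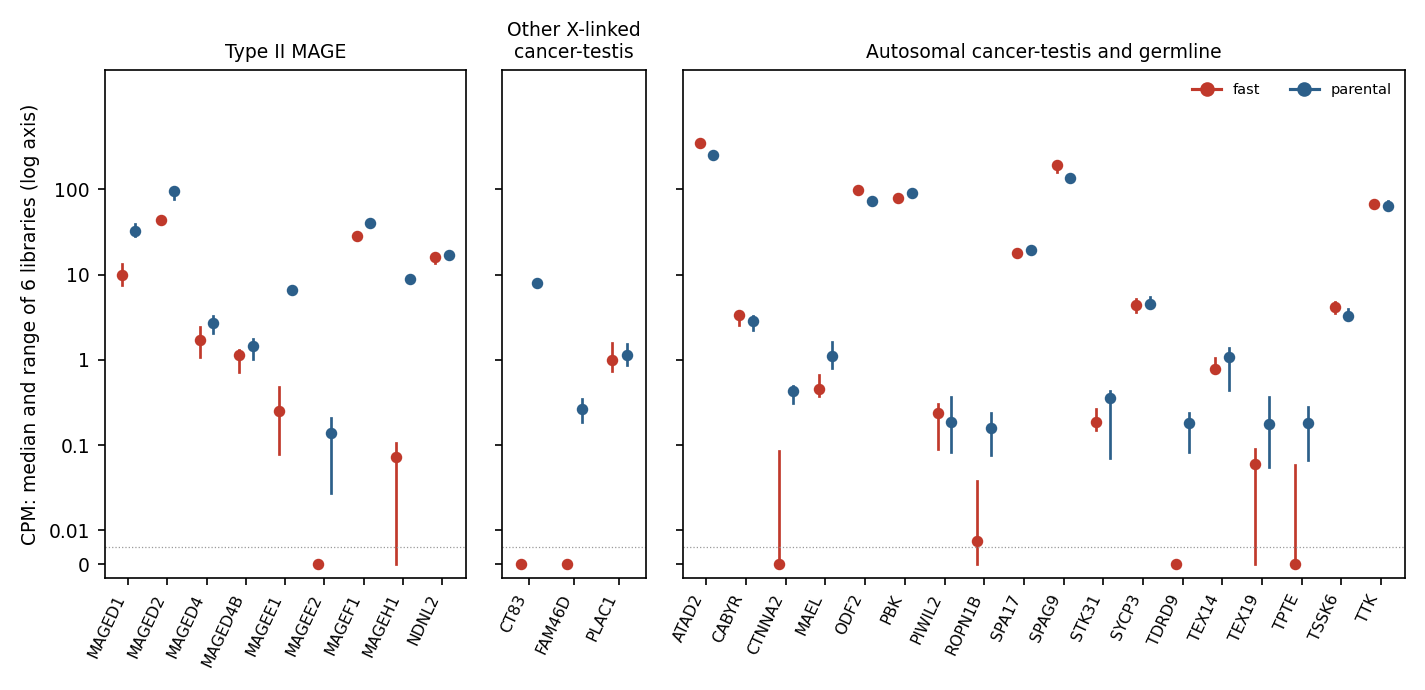
Median (point) and range (line) of CPM (log axis, 0 at the bottom) over the 6 fast (red) and 6 parental (blue) libraries for the tested genes of 3 lists of related genes. Of the type II MAGE genes, 9 of 9 were called lower in fast cells, while 4 of 18 autosomal genes were called higher and 8 lower. Over all genes tested, 31.9% were called higher and 31.5% lower.

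Markers listed for the line were read as a check. VIM, the mesenchymal filament, stood at 6620 to 7330 CPM in fast and 4960 to 5170 CPM in parental libraries. CD44 went the other way, with 680 to 721 CPM in fast and 852 to 946 CPM in parental libraries. AXL stood at 1390 to 1450 CPM in fast and 1260 to 1430 CPM in parental libraries. The epithelial CDH1, listed as absent, had 8 counts in fast and 3 in parental cells. Of the other markers listed as absent, ESR1, the estrogen receptor, had 55 counts in fast and 54 in parental cells. EPCAM, an epithelial surface protein, was present at 9.72 to 12.0 CPM in fast and 9.49 to 12.3 CPM in parental libraries, and PGR, the progesterone receptor, at 1.38 to 2.58 CPM in fast and 0.276 to 0.666 CPM in parental libraries, which goes against the listing. Summed levels of 9 germ cell markers were 4.40 to 6.06 CPM in fast and 5.26 to 6.54 CPM in parental libraries, with DAZL, PRM1, PRM2 and TNP1 at 0. Most of the sum was SYCP3, at 3.63 to 5.21 CPM in fast and 4.4 to 5.47 CPM in parental libraries. ACRV1 had 259 counts in fast and 328 in parental cells, and NANOS3 had 92 in fast and 57 in parental cells. Leukocyte, fibroblast and endothelial markers each summed to less than 1 CPM in every library.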

How the data were processed

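RNA was sequenced from 6 fast and 6 parental libraries of MDA-MB-231. The deposited table gives raw counts per gene, which the authors made from the reads and did not normalise. Per the submitters' processing notes, the tools were Trimmomatic 0.32, STAR 2.3.0e and featureCounts 1.4.4, with builds hg19 and GRCh37. Whether strand was used, and how reads with several matches were counted, are not given in the sources used here. Of values from 1 to 10 counts, 68.7% were even, against 52.7% from 101 to 1000, so the ends of a read pair may have been counted singly. Intervals on counts cover counting error only.

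All genes were fitted with edgeR 4.0.16 under R 4.3.3, with TMM, its low-count filter (minimum count 10, minimum total 15, by population and batch), batch as a term and a robust quasi-likelihood fit. Adjusted p-values are Benjamini-Hochberg values over 22668 genes, with a threshold of 0.05. In simulated data of 22668 genes for fast against parental, 84% of 50 genes changed 1.5-fold, 86% changed 2-fold and 100% changed 4-fold were recovered, and 12 of 21959 unchanged genes were called. Changes were planted only in genes above a set mean level. Recovery was therefore not tested at lower levels, such as those of SPANXB2, SPANXC, XAGE1C, MAGEA2B, MAGEC2 and CTAGE1. It was also not tested with as many changed genes as the 31.9% called higher and 31.5% called lower here. Alternatives used DESeq2 1.42.0, limma 3.58.1, other scalings, filters and terms, and left out each library.

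A fold against a population at 0 was computed against a floor of 3 counts over its libraries. If read ends were counted singly, a floor of 3 read pairs would make each such bound lower. Every member with 10 or more counts was named, with full values where its mean reached 1 CPM, and of each related list up to 4 called genes by size of change where either population reached a mean of 1 CPM. Full values of MAGEA12, MAGEC2 and MAGEC3, fitted values of other members below 1 CPM, and counts for MAGEA9, MAGEA10, SSX8, GAGE10, SPANXN1, FAM46D, PLAC1, MAGEE2, TDRD9, CTNNA2, ROPN1B, TPTE, TEX19 and FLI1, fall outside this rule and were chosen after their values were seen, as were GABRA3 and GABRE. The members and lists were chosen with earlier results of these data known. GENCODE release 29 and RefSeq, both on GRCh38, gave chromosome, order and sequence by gene ID or symbol. The ID of 93 of 115 members was in GENCODE.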

Additional observations from a re-analysis of the deposited data

Results flagged for a closer look

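Of 39 groups of 6 libraries of named members, 4 held a library far from the other 5, where chance gives about 1 in 20. CSAG1 in fast batch 2 replicate 1 was the highest of 6 at 0.0798 CPM, against 0 to 0.0298 CPM in the other fast libraries. SPANXA1 in parental batch 1 replicate 2 was the lowest at 0.527 CPM, against 0.644 to 0.674 CPM. MAGEA11 in parental batch 2 replicate 3 was the lowest at 8.62 CPM, against 9.93 to 10.6 CPM. CTAGE5 in parental batch 2 replicate 2 was the lowest at 26.2 CPM, against 29.6 to 31.2 CPM. The log2 fold changes of these 4 genes remained past the threshold when any 1 library was left out.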

How the results depend on the processing

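The counts of members called higher and lower were 6 and 14. Without a low-count filter 63 members were tested and 23 fell, and with a mean of at least 1 CPM 9 were tested, of which 2 rose and 7 fell. With each family summed into 1 row, 6 families were tested, of which SPANX rose and 5 (MAGEA, MAGEC, CSAG, SSX and XAGE) fell, 1 against 5. Leaving out 1 library gave 6 to 7 that rose and 14 to 15 that fell. Replicate numbers did not pair the libraries (correlations of same-numbered deviations from the group means of -0.0222 to 0.0329), and the fit with the replicate block in place of the batch term gave 6 and 14. The direction of 2 genes that were never called turned in batch 2 alone, to a log2 fold change of 0.054 for XAGE1C and -0.051 for CTAGE7P. Of the other values of single genes and of family sums, 505 were unchanged. For a gene this meant the same direction and side of the threshold. For a family sum it meant a shift within its standard deviation under plain library totals. In 8 cases a gene lost its call: SPANXB2 without a filter (edgeR adjusted p = 0.0573), without fast batch 2 replicate 2, in batch 1 alone (0.143) and in batch 2 alone (0.0925), SPANXC in batch 1 alone, CTAGE1 in batch 2 alone, and XAGE1D and XAGE1E without a batch term. The cause was not tested. Fitted fold changes of genes at 0 in fast cells depend on the prior count and are not given. Depth limits the MAGEB, GAGE, PAGE and CTAG genes.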

Other observations

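Genes known to act on MAGE proteins or on germline promoters were also read from the fit. Of 10 tested ubiquitin ligase partners and targets of MAGE proteins, 4 rose, 3 fell and 3 were not called. Over all genes tested, 31.9% rose and 31.5% fell. The median log2 fold change of the 10 was 0.03 beside 0.01 over all genes. PJA1, an X-linked ligase that binds MAGED1, fell by 1.63 (SE 0.06), and LNX1, another ligase, fell by 0.42 (SE 0.07). VPS35, a retromer subunit, rose by 0.68 (SE 0.03) and PRKAA1, the catalytic subunit of AMP-activated kinase, rose by 0.49 (SE 0.03), each on the log2 scale.

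Of 41 tested genes of DNA methylation and germline gene repression, 15 rose, 19 fell and 7 were not called, where 31.9% and 31.5% of all genes tested did so, with a median log2 fold change of -0.07. ZBTB33, which reads methylated DNA, had 13.9, 16.1 and 17.5 CPM (lowest, median, highest) in fast libraries and 32.2, 34.4 and 39.4 CPM in parental libraries. It fell by 1.13 (log2, SE 0.04), without overlap. The methyl-CpG binding genes MBD2 and MBD1 fell by 0.86 and 0.69, and SMCHD1, a silencing factor of the inactive X chromosome, rose by 0.72 (log2, SE 0.04, 0.04 and 0.03). Of 15 tested ETS and SP transcription factors, 7 rose, 6 fell and 2 were not called, beside the same 31.9% and 31.5% of all genes tested. Their median log2 fold change was 0.06. ETV1 rose by 0.96 (SE 0.05) and ELF1 by 0.62 (SE 0.04), while ELF4 fell by 0.66 (SE 0.04) and ELK1 by 0.49 (SE 0.03), on the log2 scale. Below 1 CPM, FLI1 had 18 counts in fast and 130 in parental cells and fell by 2.83 (SE 0.53, edgeR adjusted p = 2.06e-05).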
